A study of Mus musculus with 6 samples.

Results

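MAR1-intermediate (MAR1INT) and MAR1-high (MAR1HI) CD34-negative cells of mouse bone marrow were compared across all genes by RNA sequencing. The comparison took 4 of the 6 libraries of the series, 2 MAR1INT and 2 MAR1HI, by the population named in their labels. Of the 24532 genes in the deposited tables, 10778 had at least 1 TPM (a transcript abundance corrected for length and scaled to the same total in every library) in at least 2 of those 4 libraries and were tested. Both populations came from C57BL/6J mice and shared the gates Lineage-, CD34-, ckit- and CD200R3+. They were parted by a high (HI) or an intermediate (INT) signal for MAR1, a monoclonal antibody that recognises the alpha chain of the Fc epsilon receptor of basophils. The other 2 libraries held BaP, the basophil precursors of the study, also C57BL/6J, which were Lineage-, CD34+, ckit- and MAR1+. They served here only to estimate the spread between duplicates and as levels set beside the others. By the study design, each population was measured in biological duplicates. How many mice each library pooled, and the age and sex of the mice, are not given in the sources used here.

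Basophils are short-lived granulocytes that arise in the bone marrow from CD34+ progenitors and leave it for the blood. They carry IgE on the receptor that MAR1 detects, whose alpha chain (Fcer1a) binds the antibody, while the beta chain (Ms4a2) and the gamma chain (Fcer1g) pass the signal on. As granulocyte precursors mature they leave the cell cycle, and mature basophils release histamine, granule proteases, lipid mediators, chemokines and interleukin-4.

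The depth was alike in the 4 libraries, at 4.75 to 5.28 gigabases of aligned sequence implied by the tables. Fewer genes reached 1 TPM in MAR1INT (9604 and 9705) than in MAR1HI (10710 and 11038), and more were listed at 0 (13670 and 13230 against 11530 and 9931). Over the tested genes the SD between duplicates on the log2 scale was 0.67 in MAR1INT and 0.41 in MAR1HI. Replication-dependent histone genes took 18.7% and 12.1% of all TPM in MAR1HI and 8.29% and 7.87% in MAR1INT. The part of these library properties in the gene counts below was not tested. Of the markers of the labelled cell type, the basophil protease genes Mcpt8 and Prss34 stood between 2161 and 6416 TPM and between 3588 and 8133 TPM in the 4 libraries. All 10 basophil markers were among the tested genes. So were all 13 neutrophil and all 10 erythroid markers, so being tested does not tell cell types apart.

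MAR1INT differed from MAR1HI mostly by lower values. Changes are given as log2 differences of TPM + 1, MAR1INT minus MAR1HI, and a gene was called, that is said to have risen or fallen, at a limma adjusted p under 0.05. Of 10778 genes, 277 rose (2.57%) and 1715 fell (15.9%), together 18.5%, of which 177 and 1592 changed at least 2-fold on that scale. The median tested gene stood at -0.34, and that shift depended on how the libraries were scaled: it was -0.32 in FPKM, -0.46 in TPM without histone genes, -0.080 with median-of-ratios factors and 0.061 after quantile normalization. The higher share of the calls was 13.91% in TPM, 40.02% with median-of-ratios factors (828 higher, 1241 lower) and 42.5% after quantile normalization (734 higher, 993 lower). No called gene turned its direction under any of the 5 scalings. In all 5, 217 genes (2.01%) were called higher and 831 (7.71%) lower, and counts marked "in every scaling" below refer to these. Replication-dependent histone genes have no value in TPM without histone genes, so they were judged by the other scalings only. Among the genes called lower, 284 were listed at 0 in both MAR1INT libraries. A value of 0 in these tables can be a failed estimate, so no fold is given against such a group, and a fitted difference of such a gene is no bound.

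The number of calls rested on having both MAR1HI libraries. Without MAR1HI replicate 1, 50 genes were called higher and 592 lower, and without replicate 2, 54 and 274. In either case the single MAR1HI library was taken to vary like the other groups. Without MAR1INT replicate 1 or 2 the counts were 306 and 2249 or 367 and 2300. MAR1HI replicate 2 stood apart in its median-of-ratios factor, at 1.35 against 0.90 to 0.98 in the other 5 libraries, and the median difference over genes was -0.06 and -0.16 against MAR1HI replicate 1 but -0.49 and -0.59 against replicate 2. In what follows, a gene is said to hold when its call survived leaving out each of the 6 libraries in turn. Without a MAR1INT library the remaining one was likewise taken to vary like the other groups, whose duplicates differed less, and limma then gave every gene the spread of the common trend. Those 2 leave-outs are therefore a weak check, and holding rests mainly on the MAR1HI and BaP leave-outs. Of 166 called genes under the naming rule, 47 did so, and 85 lost their call only without a MAR1HI library. Where a gene list below had 0 rises or 0 falls by the limma adjusted p, an unadjusted p under 0.05 mostly gave 0 as well. The exceptions among rises were 1 mitochondrial ribosomal protein and 1 erythroid marker. Among falls they were 1 growth and alarmin receptor, 3 exocytosis genes, 1 NF-kappaB gene and 1 monocyte and macrophage marker.

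**Figure D1:**
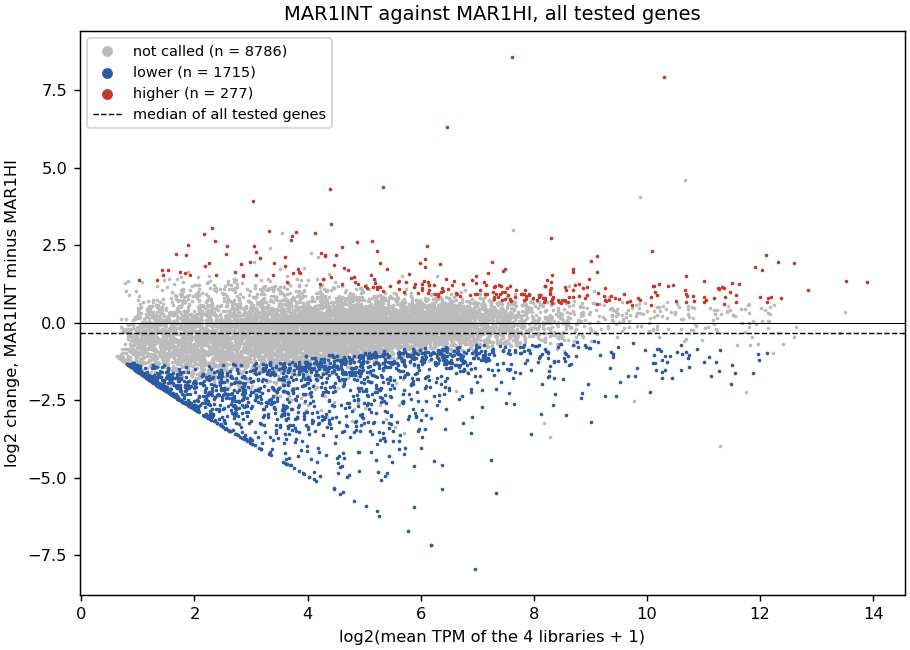
Each point is 1 of the 10778 tested genes, with its mean level in the 4 libraries on the x axis (log2 of mean TPM + 1) and its log2 change, MAR1INT minus MAR1HI, on the y axis. The 1715 genes called lower outnumber the 277 called higher, and the dashed line marks the median gene at -0.34; the straight lower edge is made of genes listed at 0 in both MAR1INT libraries.

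The balance of calls changed with the level of the gene. Below a mean of 2 TPM, 0.581% of 861 genes rose and 24.9% fell, while at 200 TPM or more 18.7% of 663 genes rose and 18.1% fell. The SD between the MAR1INT duplicates was 0.87 at 2 to under 10 TPM and 0.39 at 50 to under 200 TPM but 0.64 below 2 TPM and 0.51 at 200 TPM or more. The MAR1HI duplicates differed less by level, with an SD of 0.35 to 0.47. The median change rose with the level, from -0.89 in the lowest class to 0.09 in the highest.

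**Figure D2:**
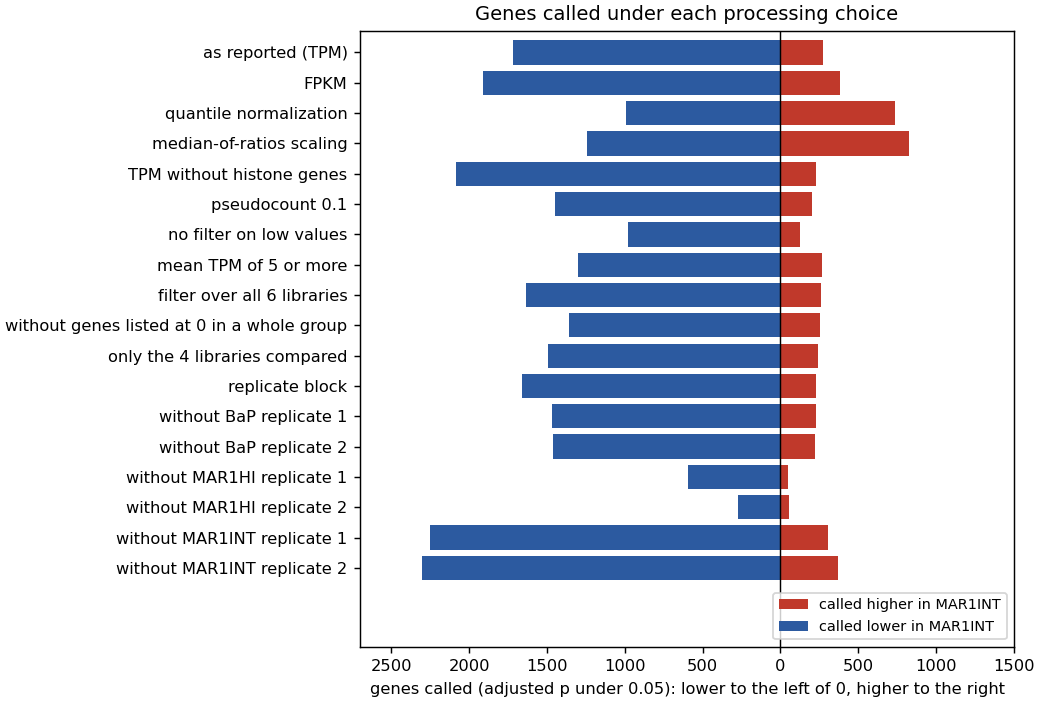
Bars give the number of genes called lower (left of 0) and higher (right of 0) in MAR1INT for TPM as reported and for each other processing choice. The lower calls exceed the higher ones in all 18 settings, from 274 without MAR1HI replicate 2 to 2300 without MAR1INT replicate 2, and the higher calls range from 50 to 828.

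The transcripts of the gated proteins were looked at first. Fcer1a (mm10 chr1:173221271-173227229), the target of MAR1, stood at 1211 and 1446 TPM in MAR1HI and 534 and 422 TPM in MAR1INT, so that both intermediate libraries lay below both high ones. It fell by 1.48 (SE 0.20, limma adjusted p = 0.00102) and held. The other chains of the receptor did not follow it. Ms4a2 stood at 657 and 683 against 644 and 540.1 TPM and Fcer1g at 906 and 986 against 900.0 and 842 TPM, neither past the threshold (adjusted p = 0.539 and 0.702). Because the sort used the protein of Fcer1a, its direction checks the labels and is not a finding.

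Cd200r3 (chr16:44943678-44981380), an activating member of the CD200 receptor family used to gate both populations as positive, read 1602 and 1576 TPM in MAR1HI and 2696 and 2342 TPM in MAR1INT. Its rise of 0.66 (adjusted p = 0.0258) was lost without either MAR1HI library or without MAR1INT replicate 1 (adjusted p up to 0.162), and in some scalings. The genes of the proteins both gates excluded were low in both populations. Cd34, a sialomucin of progenitors, stood at 4.67 and 7.63 TPM in MAR1HI and 0.134 and 0 TPM in MAR1INT (-2.72, adjusted p = 0.00223, lost without MAR1HI replicate 2 at 0.0577). Kit, which binds stem cell factor, was at 2.94 and 4.36 and 0.0446 and 0.449 TPM (-1.90, adjusted p = 0.0145, lost without either MAR1HI library). In bulk samples such as these, fewer cells of a type and less RNA per cell cannot be told apart.

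Genes of the cell cycle fell together and by the most. Of 84 tested genes of G2 and mitosis, 83 fell and 0 rose, with a median of -3.14 beside -0.34 over all tested genes and 15.9% of all genes called lower. Of 65 genes of DNA replication and S phase, 56 fell and 0 rose, with a median of -2.57. In every scaling 78 and 52 of them fell. The summed level of the mitotic genes was 7700 and 9470 TPM in MAR1HI and 1459 and 1309 TPM in MAR1INT, that of the S phase genes 3831 and 4598 against 1464 and 1187 TPM. The MAR1HI and MAR1INT libraries did not overlap in either sum. Without MAR1HI replicate 1, 68 mitotic and 39 S phase genes were still called lower, and without replicate 2, 50 and 27. Pttg1, which encodes securin, was the 1 mitotic gene not called, at 24.3 and 25.0 against 18.4 and 18.9 TPM.

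The promoters of these genes are shown because the lists are known for shared control elements. G2 and mitosis genes are textbook targets of the CHR element with CCAAT boxes, and S phase genes of E2F sites. The sequences are the 120 bases before the start of each gene (RefSeq, GRCm38.p6, strand of the gene, 5′ to 3′), with capitals on matches to a motif. The 3 genes of each list were picked for their motifs, with the promoters of a single chromosome left out beforehand. They had the largest falls among the genes with both a CHR and a CCAAT match (G2 and mitosis) or an E2F match (S phase) in these bases. They therefore do not show how common the motifs are.
Kif22, chr7:127042421-127042540, minus strand: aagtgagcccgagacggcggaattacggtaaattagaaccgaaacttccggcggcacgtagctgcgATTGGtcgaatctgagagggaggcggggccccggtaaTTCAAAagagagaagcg
Ect2, chr3:27153879-27153998, minus strand: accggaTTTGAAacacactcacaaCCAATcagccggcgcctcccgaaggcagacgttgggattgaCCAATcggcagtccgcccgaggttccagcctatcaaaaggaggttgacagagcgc
Top2a, chr11:99024190-99024309, minus strand: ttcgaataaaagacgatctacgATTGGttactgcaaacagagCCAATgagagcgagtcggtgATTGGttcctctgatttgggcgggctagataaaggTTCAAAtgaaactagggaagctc
Gins3, chr8:95633439-95633558, plus strand: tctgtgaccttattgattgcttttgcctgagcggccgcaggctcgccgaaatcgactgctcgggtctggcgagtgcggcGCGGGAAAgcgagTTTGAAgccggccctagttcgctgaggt
Mcm6, chr1:128359706-128359825, minus strand: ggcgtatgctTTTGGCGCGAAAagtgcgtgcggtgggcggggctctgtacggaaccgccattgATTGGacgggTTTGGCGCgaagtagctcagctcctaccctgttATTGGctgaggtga
Cdc25a, chr9:109875459-109875578, plus strand: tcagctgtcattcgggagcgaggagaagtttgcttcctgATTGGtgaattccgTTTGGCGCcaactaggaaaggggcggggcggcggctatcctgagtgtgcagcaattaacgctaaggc

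The motifs searched were TTTGAA for the CHR, CCAAT for the CCAAT box, and TTTCCCGC, TTTGGCGC, TTTGCCGC and TTTCGCGC for E2F, each on both strands (the other strand reads TTCAAA for the CHR, ATTGG for the CCAAT box, and GCGGGAAA, GCGCCAAA, GCGGCAAA and GCGCGAAA for E2F). The window was the 250 bases before the start, matched for 71 of 84 mitotic and 52 of 65 S phase genes. A CHR match was in 35.2% of the mitotic promoters, 17.3% of the S phase promoters, 13.4% of the promoters of tested genes and 18.3% of all 27025 promoters. A CCAAT box was in 67.6%, 59.6%, 41.5% and 37.5%, in the same order. An E2F match was in 8.45%, 25%, 4.23% and 2.16%. The CHR and CCAAT box together were in 28.2% of mitotic promoters and 6.45% of all promoters. Matches to different motifs shared no bases in these promoters, although E2F matches can overlap each other, as the first pair in Mcm6 does. These shares describe letters in a window and carry no test.

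Among the mitotic genes, Birc5 (chr11:117849237-117855743), whose product survivin belongs to the chromosomal passenger complex, had the largest fall. It stood at 123 and 108 TPM in MAR1HI and 2.58 and 0 TPM in MAR1INT (-5.94, SE 0.51, adjusted p = 0.000101). Kif22 (chr7:127027731-127042420), a kinesin that moves chromosome arms, stood at 66.7 and 83.6 and 1.35 and 1.09 TPM (-5.09, SE 0.34, adjusted p = 3.97e-05), and Melk, a mitotic kinase, at 39.6 and 47.6 and 0.0580 and 1.23 TPM (-4.86, adjusted p = 0.000127). All 3 held, and none came near overlapping between the populations. Cenpk of the kinetochore, at 51.1 and 40.1 and 2.43 and 0 TPM (-4.64, adjusted p = 0.000503), lost its call without MAR1HI replicate 2 (0.0550). The proliferation marker Mki67, picked after its values were seen, stood at 598 and 748 TPM in MAR1HI and 101 and 69.3 TPM in MAR1INT (-2.98, adjusted p = 7.98e-05) and held.

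Subgroups of both lists were drawn up after the values were seen. Every gene of the mitotic subgroups given here fell. All 12 kinesin motors fell, from -5.09 for Kif22 to -1.89 for Kif23, as did all 11 centromere and kinetochore genes, all 8 mitotic kinases and all 6 spindle checkpoint genes. The mitotic cyclins and Cdk1, which drive entry into mitosis, summed to 423 and 604 TPM in MAR1HI and to 49.4 and 36.8 TPM in MAR1INT, a mean 11.9 times lower. The condensin subunits, which compact chromosomes, summed to 815 and 964 against 245 and 211 TPM, and all 7 fell. Of these mitotic subgroups the condensins had the smallest ratio of sums (3.90) and the kinetochore genes the largest (13.0). The 4 E2F factors, grouped with the S phase genes, had a ratio of 1.40, and 2 of them fell.

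Among the S phase genes, Cdc7, the kinase that fires replication origins, stood at 42.0 and 58.8 TPM in MAR1HI and 1.85 and 0 TPM in MAR1INT (-4.91, adjusted p = 0.000210). Gins1, a subunit of the replicative helicase, read 29.4 and 26.9 TPM in MAR1HI and was listed at 0 in both MAR1INT libraries (adjusted p = 9.43e-05). Rfc4, of the clamp loader, read 24.2 and 29.4 TPM and was likewise listed at 0 (adjusted p = 0.000103). These 3 held, whereas Ccne2, a cyclin of the G1 to S transition, at 53.7 and 59.5 and 3.39 and 0 TPM (-4.78, adjusted p = 0.000595), did not without MAR1HI replicate 2 (0.0673). The falls of Gins1 and Rfc4 are uncertain as levels, because a listed 0 can be a failed estimate and shows no spread between duplicates. All 6 subunits of the MCM helicase fell, from -3.01 for Mcm3 to -1.63 for Mcm6, and so did 8 of 9 polymerase and primase genes and all 6 enzymes of nucleotide supply. Rrm2, the ribonucleotide reductase subunit, showed the wide spread of the MAR1INT duplicates, at 213 and 214 TPM in MAR1HI and 36.5 and 7.95 TPM in MAR1INT. The 9 S phase genes not called were Cdt1, Gins4, Rfc1, Rfc2, Rfc3, Pola2, Orc1, E2f2 and E2f8. The repressor E2f8 stayed near 213 and 302 TPM in MAR1HI and 224 and 189 TPM in MAR1INT (adjusted p = 0.429), while the activator E2f1 fell (-2.93, adjusted p = 0.00275, kept in 4 of 6 leave-outs).

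**Figure D3:**
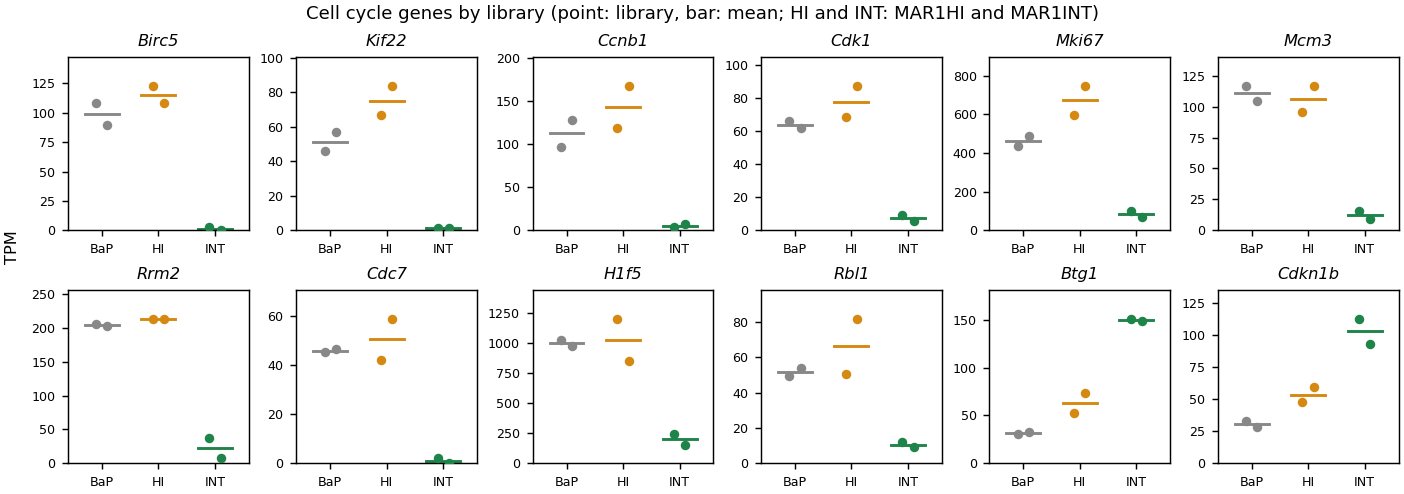
Levels of 12 cell cycle genes in TPM, 1 panel a gene with its own axis from 0; points are libraries (grey BaP, orange MAR1HI, green MAR1INT) and bars are means of 2. In the 10 panels from Birc5 to Rbl1 both MAR1INT points lie below both MAR1HI points, and for Btg1 and Cdkn1b both lie above.

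Of 20 tested cyclin-dependent kinase inhibitors and antiproliferative genes 3 rose and 3 fell, with a median of 0.16. Each count was 15% of the list, beside 2.57% of all genes called higher and 15.9% called lower. Btg1, an antiproliferative transcriptional cofactor, rose from 52.9 and 73.3 TPM in MAR1HI to 152 and 149.6 TPM in MAR1INT (1.26, adjusted p = 0.00851, lost without MAR1HI replicate 1 at 0.0550). Cdkn1b (p27) stood at 47.1 and 59.3 and 112 and 92.9 TPM (0.94, adjusted p = 0.0357), a call lost in every leave-out except that of MAR1INT replicate 2. Rbl2 (p130), a pocket protein of resting cells, stood at 171 and 211 and 401 and 308 TPM (0.88, adjusted p = 0.0229, lost without either MAR1HI library or MAR1INT replicate 1). Its relative Rbl1 (p107) went the other way and held, at 50.5 and 82.1 TPM in MAR1HI and 11.6 and 8.89 TPM in MAR1INT (-2.55, adjusted p = 0.000831). Cdkn1a (p21) read 4.66 and 5.03 TPM in MAR1HI and was listed at 0 in both MAR1INT libraries (adjusted p = 0.00259, lost without MAR1HI replicate 2 at 0.0590). Cdkn2c (p18), at 20.7 and 34.1 and 8.31 and 1.46 TPM (-2.53, adjusted p = 0.0165), lost its call without either MAR1HI library. Neither tested D cyclin was called: Ccnd3 stood at 123 and 137 against 100.4 and 83.0 TPM (adjusted p = 0.170) and Ccnd2 at 6.89 and 6.90 against 16.0 and 12.8 TPM (adjusted p = 0.124).

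Replication-dependent histone genes, which are transcribed in S phase, fell less far and less firmly. Of 68 tested, 41 fell and 2 rose with a median of -1.02, but in every scaling only 7 fell. For these genes that leaves out the scaling without histone genes. The falls were 60.3% of the list beside 15.9% of all genes, and the rises were 2.94% beside 2.57%. The 7 of 68 in every scaling were near the 7.71% of all genes. Without MAR1HI replicate 1 the lower calls were 20, and without replicate 2 they were 33. The linker histone H1f5 stood at 1205 and 848 TPM in MAR1HI and 244 and 154 TPM in MAR1INT (-2.38, adjusted p = 0.000277) and held. The core histone gene H3c3 stood at 5865 and 3356 and 1004 and 1256 TPM (-1.98, adjusted p = 0.000777) and held, although not in every scaling. H2ac10 (-2.24) and H2ac21 (-2.13) also held, but 35.3% and 68.2% of their exonic bases lie in exons of another gene. The 2 rises, H3c14 (0.00665 and 0.0327 to 402 and 379 TPM) and H4bc24 (70.5 and 0.461 to 2518 and 2462 TPM), are uncertain, because histone copies are near-identical and the exons of H3c14 lie wholly within another gene.

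Chromatin proteins that go with dividing cells fell too. Of 28 tested HMG and chromatin proteins 15 fell and 1 rose, with a median of -1.14, and 14 fell in every scaling. The falls were 53.6% of the list beside 15.9% of all genes, and the rise was 3.57% beside 2.57%. In every scaling 7.71% of all genes fell. Without MAR1HI replicate 1 or 2 the lower calls were 9 or 6. Asf1b, a histone chaperone, stood at 60.3 and 67.4 TPM in MAR1HI and 2.78 and 6.44 TPM in MAR1INT (-3.61, adjusted p = 0.000240), and the variant histone gene H2ax at 926 and 608 and 177 and 135 TPM (-2.27, adjusted p = 0.000264). Both held. Hells, a chromatin remodeller, at 56.2 and 53.0 and 2.84 and 10.3 TPM (-3.07, adjusted p = 0.00182), and the nucleosome-binding Hmgn1, at 10.7 and 15.8 and 1.45 and 0 TPM (-3.17, adjusted p = 0.00241), lost their calls without either MAR1HI library. H3f3b, a histone gene expressed outside S phase, was the 1 rise, from 282 and 273 to 455 and 416 TPM (0.65, adjusted p = 0.0397), and it was lost in every leave-out.

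**Figure D4:**
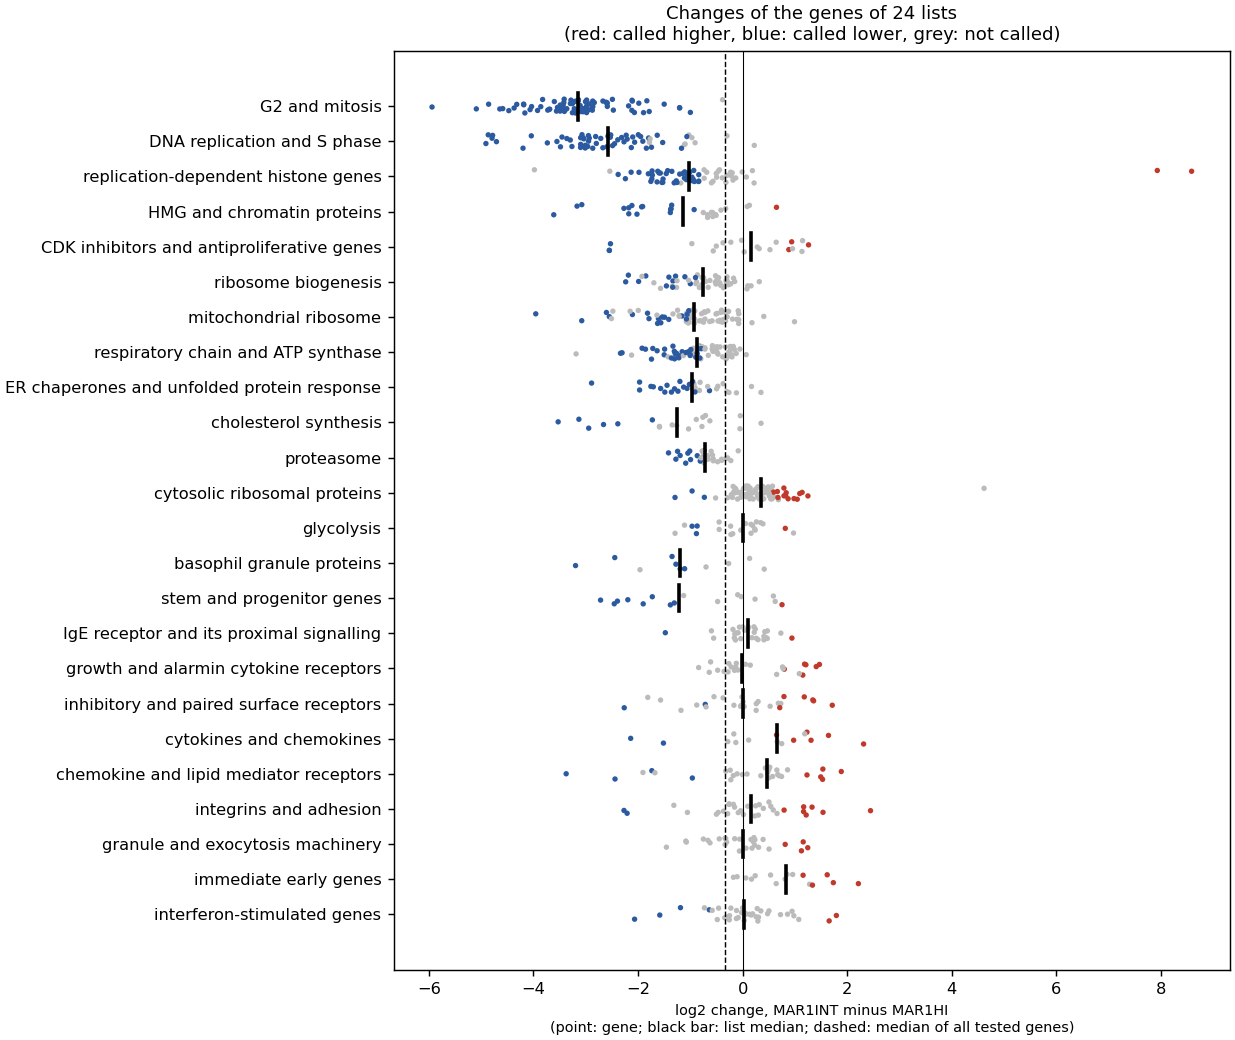
Each point is a tested gene, placed by its log2 change, MAR1INT minus MAR1HI, in the row of its list (24 of the lists); red points were called higher, blue lower, grey not called, black bars are list medians and the dashed line is the median of all tested genes at -0.34. The G2 and mitosis row (median -3.14) and the S phase row (-2.57) lie farthest to the left, and immediate early genes (0.83) and cytokines and chemokines (0.66) have the highest medians.

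Many genes of protein folding in the endoplasmic reticulum fell. Of 32 tested chaperone and unfolded protein response genes 18 fell and 0 rose, 13 of them in every scaling, with a median of -0.96. The falls were 56.2% of the list beside 15.9% of all genes, and 7.71% of all genes fell in every scaling. Their summed level was 6510 ± 559 TPM (SD, n = 2) in MAR1HI and 3199 ± 5.17 TPM (SD, n = 2) in MAR1INT. Calr, the lectin chaperone calreticulin, stood at 744 and 834 TPM in MAR1HI and 250.2 and 160.5 TPM in MAR1INT (-1.97, adjusted p = 0.000436). Sdf2l1, a cofactor of the chaperone BiP, stood at 27.4 and 33.8 and 4.16 and 2.50 TPM (-2.89, adjusted p = 0.000544), and Manf, a stress-induced protein of the reticulum, at 53.4 and 67.5 and 16.2 and 18.1 TPM (-1.75, adjusted p = 0.00205). These 3 held. Creld2, at 94.9 and 80.1 and 13.4 and 34.2 TPM (-1.97, adjusted p = 0.00605), lost its call without either MAR1HI library, and the list's count was 9 without MAR1HI replicate 1 and 4 without replicate 2.

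Calls among mitochondrial genes depended on the scaling. Of 76 tested genes of the respiratory chain and ATP synthase 32 fell and 0 rose (median -0.87), but 15 fell in every scaling, and without MAR1HI replicates 1 and 2 the counts were 7 and 1. By complex, 14 of 36 genes of complex I, 1 of 4 of complex II, 3 of 10 of complex III with cytochrome c, 5 of 11 of complex IV and 9 of 15 of ATP synthase fell. Over the whole list 42.1% fell, beside 15.9% of all genes, and 7.71% of all genes fell in every scaling. Ndufs6 of complex I stood at 121 and 119.7 TPM in MAR1HI and 27.3 and 35.3 TPM in MAR1INT (-1.92, adjusted p = 0.000930) and held. Uqcrq of complex III, at 54.5 and 53.3 and 7.53 and 12.9 TPM (-2.33, adjusted p = 0.00166), and Ndufc2 of complex I, at 155 and 128 and 25.7 and 29.8 TPM (-2.30, adjusted p = 0.00451), lost their calls without either MAR1HI library. Of 76 mitochondrial ribosomal proteins 17 fell and 0 rose (22.4% lower beside 15.9% of all genes, median -0.94). In every scaling 6 of the 76 fell, near the 7.71% of all genes, with 5 and 2 left without MAR1HI replicates 1 and 2. Mrpl55 (18.1 and 11.6 TPM in MAR1HI) and Mrps28 (8.56 and 6.43 TPM) were listed at 0 in both MAR1INT libraries and held (adjusted p = 0.000277 and 0.00109). A listed 0 can be a failed estimate and shows no spread between duplicates, so both falls are uncertain as levels.

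Ribosome genes gave few calls that stood in every scaling. Of 50 tested nucleolar and processing factors 12 fell and 0 rose (24% lower beside 15.9% of all genes, median -0.76). In every scaling 2 of the 50 fell, no more than the 7.71% of all genes, and 0 were called without either MAR1HI library. Nop10, of the snoRNP that modifies ribosomal RNA, stood at 65.7 and 68.7 TPM in MAR1HI and 14.8 and 21.6 TPM in MAR1INT (-1.85, adjusted p = 0.00309). Of 79 tested ribosomal protein genes 13 rose and 3 fell (median 0.34). In every scaling 2 of the 79 rose, near the 2.01% of all genes, and 7 rose without MAR1HI replicate 1 and 0 without replicate 2. Rps9 stood at 1843 and 1379 TPM in MAR1HI and 3442 and 3580 TPM in MAR1INT (1.14, adjusted p = 0.00298, 0.0545 without MAR1HI replicate 2), with the lower MAR1HI value in replicate 2. Rpl3 fell against the rest of its list and held, at 1524 and 1606 TPM in MAR1HI and 708 and 576 TPM in MAR1INT (-1.29, adjusted p = 0.00128). Of 41 translation factors 1 rose and 2 fell (median -0.35). These were 2.44% and 4.88% of the list, beside 2.57% and 15.9% of all genes.

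Of 34 tested proteasome genes 14 fell and 0 rose (41.2% lower, median -0.72), 5 of them in every scaling, with 2 and 0 left without MAR1HI replicates 1 and 2. Psmb4, a core subunit, stood at 118 and 152 TPM in MAR1HI and 48.1 and 50.9 TPM in MAR1INT (-1.42, adjusted p = 0.00377, 0.0614 without MAR1HI replicate 2). Of 19 genes of cholesterol synthesis 6 fell and 0 rose (median -1.26), 3 of them in every scaling, with 3 and 1 left. Dhcr7, the enzyme of the final reduction, stood at 7.85 and 10.7 TPM in MAR1HI and 0.348 and 0 TPM in MAR1INT (-3.13, adjusted p = 0.00106) and held. Falls were 41.2% of the proteasome list and 31.6% of the cholesterol list, beside 15.9% of all genes. In every scaling 7.71% of all genes fell. Of 22 glycolysis genes 1 rose and 3 fell (median 0.01), none of them without either MAR1HI library. The glycolysis rise was 4.55% of the list beside 2.57% of all genes, and the falls were 13.6% beside 15.9%. Gapdh stood at 3416 and 3047 and 1763 and 1770 TPM (-0.87, adjusted p = 0.00695) and Aldoa at 662 and 912 and 1500 and 1249 TPM (0.82, adjusted p = 0.0231).

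Granule proteins of basophils were lower in MAR1INT. Of 17 listed genes 11 were tested, and of these 6 fell and 0 rose (median -1.19), 2 of them in every scaling. The falls were 54.5% of the tested members beside 15.9% of all genes, and 7.71% of all genes fell in every scaling. Ctsg (chr14:56099885-56102574), the serine protease cathepsin G, stood at 925 and 937 TPM in MAR1HI and 105 and 96.5 TPM in MAR1INT (-3.19, SE 0.18, adjusted p = 1.24e-05), and it held. Mcpt8, the basophil protease, stood at 6416 and 4839 and 2745 and 2161 TPM (-1.19, adjusted p = 0.00471), and Cpa3, the granule carboxypeptidase, at 2760 and 3017 and 1448 and 981 TPM (-1.28, adjusted p = 0.00310). Both lost their calls without either MAR1HI library (adjusted p up to 0.0827 and 0.0897) and in some scalings. Serpinb1a, an inhibitor of granule proteases, stood at 225 and 331 and 115 and 99.0 TPM (-1.35, adjusted p = 0.00444, 0.0653 without MAR1HI replicate 2). Gzmb, the protease granzyme B, was low throughout, at 7.87 and 11.7 and 0.830 and 1.08 TPM (-2.44, adjusted p = 0.00669, lost without either MAR1HI library). Prss34, another basophil protease, stood at 8133 and 5371 against 4615 and 3588 TPM and Hdc, which makes histamine, at 625 and 768 against 902 and 945 TPM, neither past the threshold (adjusted p = 0.0833 and 0.172). Without MAR1HI replicates 1 and 2 the list held 2 and 1 lower calls.

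Signalling below the IgE receptor showed few calls. Of 29 tested genes 1 rose and 1 fell (median 0.11), the fall being Fcer1a itself. Each count was 3.45% of the list, beside 2.57% of all genes called higher and 15.9% called lower. Plcg1, the phospholipase that relays the receptor's calcium signal, stood at 36.6 and 46.2 TPM in MAR1HI and 83.3 and 76.8 TPM in MAR1INT (0.94, adjusted p = 0.0333), and its call was lost in every leave-out. Syk and Lyn, the kinases next to the receptor, stood at 50.3 and 68.9 against 80.4 and 76.5 TPM and 77.4 and 111 against 116 and 134 TPM (adjusted p = 0.327 and 0.291).

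Receptors for growth and alarmin cytokines rose where they changed. Of 24 tested 6 rose and 0 fell, all 6 in every scaling, beside 2.57% of all genes called higher; the median was -0.02. Csf2rb (chr15:78325990-78351001), the beta common chain shared by the receptors for interleukin-3, interleukin-5 and GM-CSF, stood at 629 and 743 TPM in MAR1HI and 1584 and 1527 TPM in MAR1INT (1.18, adjusted p = 0.00344). Its neighbour Csf2rb2 (chr15:78282508-78305721), the interleukin-3-specific chain of the mouse, stood at 267 and 285 and 751 and 717 TPM (1.41, adjusted p = 0.00122). Csf2rb2 held, and Csf2rb narrowly lost its call without either MAR1HI library (adjusted p up to 0.0594). They are near-identical genes, so how reads were split between them is uncertain. The ligand-specific chain Il3ra was not called, at 152 and 143 against 137 and 110.2 TPM (adjusted p = 0.461).

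Chains of the interleukin-18 and interleukin-33 receptors differed among themselves. Il18r1, which binds interleukin-18, stood at 218 and 248 TPM in MAR1HI and 499 and 537 TPM in MAR1INT (1.15, adjusted p = 0.00814), and its partner Il18rap at 326 and 374 and 668 and 553 TPM (0.80, adjusted p = 0.0216). Both were named after their values were seen. Il1rap, the shared accessory chain of the interleukin-1 and interleukin-33 receptors, stood at 30.8 and 52.8 and 119.6 and 75.0 TPM (1.21, adjusted p = 0.0353), and Il10ra at 8.12 and 12.8 and 29.7 and 30.4 TPM (1.47, adjusted p = 0.0293). Il1rl1 (ST2), which binds interleukin-33, was not called, at 163 and 211 against 165 and 168 TPM (adjusted p = 0.683). Apart from Csf2rb2 none of the 6 rises held: the list had 1 call without either MAR1HI library, 4 without MAR1INT replicate 1 and 6 without replicate 2.

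Inhibitory and paired receptors included some of the highest levels in the comparison. Of 27 tested 6 rose and 2 fell (median 0.01), with 6 and 1 in every scaling. The rises were 22.2% of the list beside 2.57% of all genes, and the falls were 7.41% beside 15.9%. Lilr4b (chr10:51480612-51486329), of the gp49 pair of immunoglobulin-like receptors, stood at 2077 and 1824 TPM in MAR1HI and 6808 and 5999 TPM in MAR1INT (1.71, SE 0.18, adjusted p = 0.000264). The inhibitory member of the pair, Lilrb4a (chr10:51490898-51496611), stood at 1146 and 1174 and 3130 and 2826 TPM (1.36, adjusted p = 0.000832). Both held, but these genes are near-identical neighbours, and 93.3% of the exonic bases of Lilrb4a lie in exons of other gene models, so their separate levels are uncertain. Pirb, another inhibitory receptor, at 89.9 and 119 and 229.9 and 242 TPM (1.18, adjusted p = 0.0221), and Siglecf, a sialic acid receptor known from eosinophils, at 29.5 and 44.5 and 79.5 and 109.8 TPM (1.34, adjusted p = 0.0152), lost their calls without either MAR1HI library. Clec12a, an inhibitory lectin receptor, fell from 299 and 317 TPM in MAR1HI to 47.0 and 85.1 TPM in MAR1INT (-2.26, adjusted p = 0.000544, 0.0532 without MAR1HI replicate 2). The call of Cd48 (-0.71) was lost in every leave-out. The list had 2 rises without either MAR1HI library.

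Of 32 listed cytokines and chemokines 15 were tested, and 6 rose and 2 fell (median 0.66), 5 and 0 of them in every scaling. The rises were 40% of the tested members beside 2.57% of all genes, and the falls were 13.3% beside 15.9%. Ccl6 (chr11:83587886-83593087), a CC chemokine of myeloid cells, stood at 350.5 and 376 TPM in MAR1HI and 1885 and 1736 TPM in MAR1INT (2.31, SE 0.19, adjusted p = 8.15e-05). Its neighbour Ccl9 (chr11:83572917-83578636) stood at 282 and 256 and 898 and 788 TPM (1.64, SE 0.22, adjusted p = 0.000946). Both held, and the populations did not overlap. Ccl3 and Ccl4, inflammatory CC chemokines, were also higher in both MAR1INT libraries but not called, at 906 and 1123 against 1544 and 1651 TPM and 189 and 295 against 497 and 585 TPM (adjusted p = 0.0674 and 0.0723). The 4 CC chemokines summed to 1727 and 2053 TPM in MAR1HI and 4824 and 4761 TPM in MAR1INT.

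The remaining calls of that list were less firm. Ltb, lymphotoxin beta, at 36.6 and 41.8 and 97.4 and 99.5 TPM (1.31, adjusted p = 0.0153), and Osm, oncostatin M, at 41.4 and 71.2 and 111 and 149.5 TPM (1.23, adjusted p = 0.0357), lost their calls without either MAR1HI library, Osm also without MAR1INT replicate 2. Tnf (3.33 and 5.65 and 0.0517 and 0.409 TPM) and Il1b (1.41 and 2.39 TPM in MAR1HI, listed at 0 in MAR1INT) were at low levels, called lower (adjusted p = 0.0159 and 0.0399) and lost without either MAR1HI library. Il4, the type 2 cytokine of basophils, was not called, at 128 and 172 against 104 and 143 TPM (adjusted p = 0.525). Without either MAR1HI library the list had 2 rises and 0 falls.

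Of 30 tested chemokine and lipid mediator receptors 5 rose and 4 fell (median 0.46), 5 and 2 in every scaling. The rises were 16.7% of the list beside 2.57% of all genes, and the falls were 13.3% beside 15.9%. Ccr3 (chr9:124021971-124031689), the eotaxin receptor, stood at 28.1 and 39.3 TPM in MAR1HI and 131 and 120.4 TPM in MAR1INT (1.89, adjusted p = 0.00263), and held. Cxcr4 (chr1:128588199-128592299), the CXCL12 receptor that retains cells in the marrow, stood at 389 and 559 and 143 and 136 TPM (-1.74, adjusted p = 0.000946), and also held. Cxcr2, a receptor that draws granulocytes to the blood, stood at 133 and 198 and 503 and 441 TPM (1.53, adjusted p = 0.00387), with 0.0649 without MAR1HI replicate 1. C3ar1, the receptor of complement C3a, stood at 42.9 and 93.3 and 194 and 168 TPM (1.49, adjusted p = 0.0199), lost without MAR1HI replicate 1. Ptafr, the receptor of platelet-activating factor, at 4.81 and 4.03 and 14.1 and 15.1 TPM (1.53, adjusted p = 0.0377), lost its call without either MAR1HI or either BaP library. Ltb4r1, the leukotriene B4 receptor, at 96.6 and 118 and 60.1 and 49.3 TPM (-0.96, adjusted p = 0.0218), lost its call without either MAR1HI library or MAR1INT replicate 2. Ccr2, a receptor of CC chemokines named after its values were seen, stood at 230.5 and 274 and 618 and 565 TPM (1.23, adjusted p = 0.00689). The falls of Gpr174 (-3.37) and Gpr65 (-2.44, with 24.7% of its exonic bases in another gene's exons) were lost without either MAR1HI library. Without MAR1HI replicates 1 and 2 the list had 1 and 3 rises and 1 fall each.

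**Figure D5:**
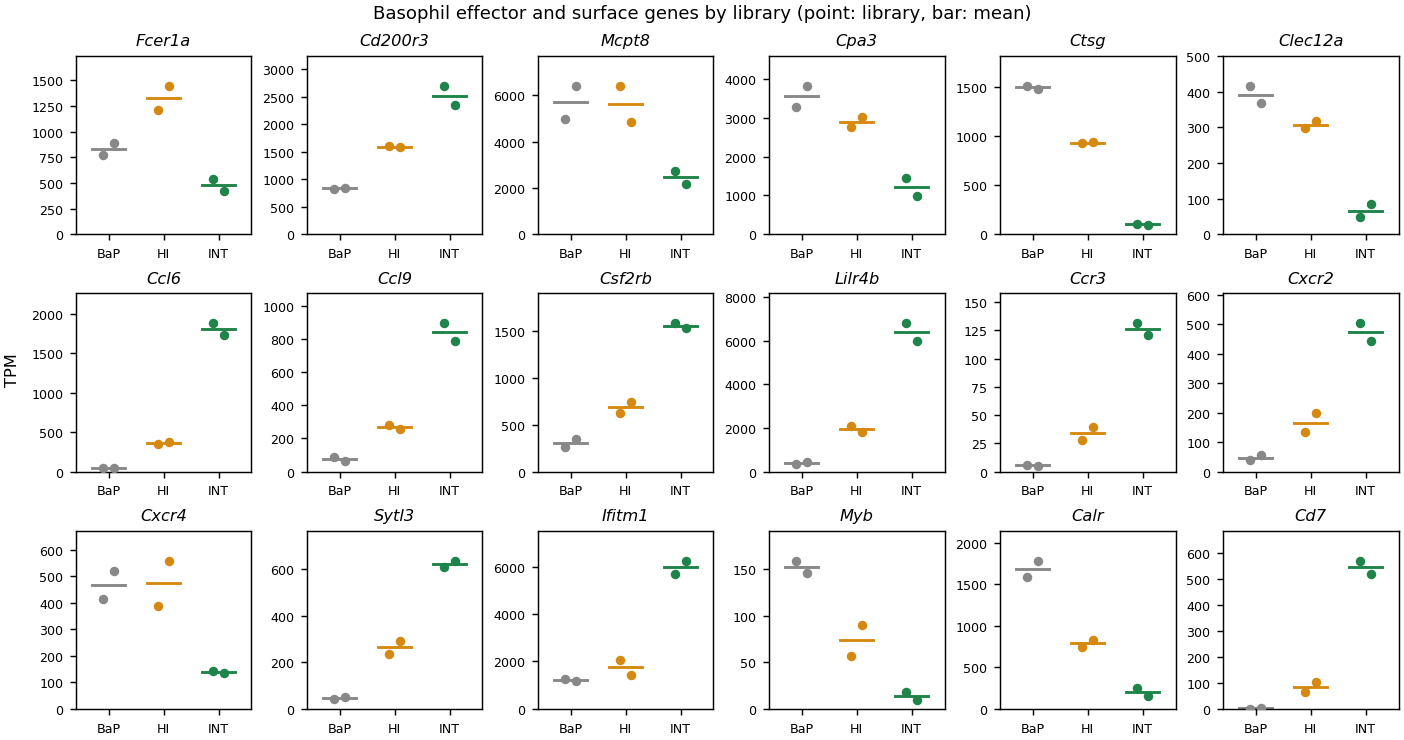
Levels of 18 basophil effector and surface genes in TPM, 1 panel a gene with its own axis from 0; points are libraries (grey BaP, orange MAR1HI, green MAR1INT) and bars are means of 2. Both MAR1INT points lie below both MAR1HI points for Fcer1a, Mcpt8, Cpa3, Ctsg, Clec12a, Cxcr4, Myb and Calr and above them for the other 10 genes, with Lilr4b reaching 6808 and 5999 TPM.

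Adhesion and exocytosis genes rose more often than they fell. Of 32 tested integrins and adhesion molecules 7 rose and 2 fell (median 0.16), 6 and 1 in every scaling. The rises were 21.9% of the list beside 2.57% of all genes, and the falls were 6.25% beside 15.9%. Itgb5, an integrin beta chain, stood at 5.06 and 8.31 TPM in MAR1HI and 42.3 and 37.7 TPM in MAR1INT (2.45, adjusted p = 0.00296, 0.0526 without MAR1HI replicate 1). Itgax (CD11c) fell from 19.2 and 22.8 to 5.28 and 2.30 TPM (-2.27, adjusted p = 0.00644, lost without either MAR1HI library). Rises were 1 and 3 and falls 0 and 0 without MAR1HI replicates 1 and 2. Of 28 tested genes of granule exocytosis 4 rose and 0 fell, all 4 in every scaling (median 0.00), with 1 and 2 left. The exocytosis rises were 14.3% of the list beside 2.57% of all genes. Sytl3, a Rab27 effector, stood at 236 and 293 TPM in MAR1HI and 612 and 638 TPM in MAR1INT (1.25, adjusted p = 0.00379) and held. Lyst, which controls the size of lysosomes and granules, stood at 259 and 328 and 658 and 618 TPM (1.12, adjusted p = 0.00569, 0.0557 without MAR1HI replicate 1). Rab44, a large Rab GTPase of granulocytes and mast cells, at 212 and 256 and 418 and 403 TPM (0.81, adjusted p = 0.0211), and Sytl2, at 34.4 and 36.3 and 76.7 and 83.8 TPM (1.16, adjusted p = 0.0346), lost their calls without either MAR1HI library, Rab44 also without MAR1INT replicate 1 and Sytl2 without replicate 2.

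Enzymes of lipid mediators and transporters of amines had 2 rises and 1 fall among 15 tested genes (median -0.10). The rises were 13.3% of the list beside 2.57% of all genes, and the fall was 6.67% beside 15.9%. Slc6a4 (chr11:76998597-77032343), the serotonin transporter, stood at 18.7 and 21.0 TPM in MAR1HI and 112 and 121 TPM in MAR1INT (2.49, adjusted p = 0.00505, lost without either MAR1HI library at up to 0.0993). Slc22a3, an organic cation transporter that carries histamine, went the other way, at 45.8 and 71.7 and 15.7 and 8.22 TPM (-2.23, adjusted p = 0.00268, lost without MAR1HI replicate 2). Alox5ap, the helper protein of 5-lipoxygenase, stood at 1353 and 1203 and 2022 and 2017 TPM (0.66, adjusted p = 0.0248), a call lost without any 1 of the 4 libraries compared. Among 32 cathepsin and lysosome genes 2 rose and 2 fell (median -0.30), and 0 rises and 1 and 0 falls were left without MAR1HI replicates 1 and 2. In the full fit the cathepsin and lysosome rises and falls were each 6.25% of the list, beside 2.57% and 15.9% of all genes. Ctse, the aspartic protease cathepsin E, stood at 29.4 and 25.1 and 75.7 and 88.6 TPM (1.56, adjusted p = 0.00894).

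Of 24 listed stem and progenitor genes 16 were tested, and 8 fell and 1 rose (median -1.22), 3 and 1 of them in every scaling. Of the tested members 50% fell, beside 15.9% of all genes, and 6.25% rose, beside 2.57%. In every scaling 7.71% of all genes fell and 2.01% rose. The falls were mostly of genes at low levels: among genes with a mean of 5 TPM or more 3 fell, with a median of -0.06. The summed level of the list went the other way, at 872 and 1036 TPM in MAR1HI and 1247 and 1139 TPM in MAR1INT. Myb, a transcription factor of dividing progenitors, stood at 57.1 and 89.9 TPM in MAR1HI and 17.8 and 9.21 TPM in MAR1INT (-2.39, adjusted p = 0.00139, 0.0695 without MAR1HI replicate 2). Angpt1, a niche factor also made by progenitors, stood at 37.9 and 61.4 and 8.50 and 7.50 TPM (-2.45, adjusted p = 0.000983) and held. Falls were 3 and 1 without MAR1HI replicates 1 and 2.

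Most transcription factors of the lineage were not called, and those called mostly rose. Of 37 tested 6 rose and 1 fell (median -0.03), 5 and 1 in every scaling, and 0 rises were left without either MAR1HI library. The rises were 16.2% of the list beside 2.57% of all genes, and the fall was 2.7% beside 15.9%. Klf2, a factor of quiescent leukocytes, stood at 0.960 and 1.22 TPM in MAR1HI and 8.64 and 8.72 TPM in MAR1INT (2.21, adjusted p = 0.00680). Myc, a driver of growth, stood at 28.0 and 25.1 and 79.9 and 58.5 TPM (1.34, adjusted p = 0.00936), so it did not fall with the cell cycle genes. Spi1 (PU.1), the myeloid factor, stood at 158 and 189 and 279 and 306 TPM (0.75, adjusted p = 0.0323), and its call was lost in every leave-out. Gata2 and Gata1, which specify basophils and mast cells, were not called, at 404 and 424 against 675 and 602 TPM and 16.1 and 30.4 against 14.2 and 15.5 TPM (adjusted p = 0.0566 and 0.388).

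Of 16 tested immediate early genes 5 rose and 0 fell (median 0.83), all 5 in every scaling, and 0 were left without either MAR1HI library. They are the first genes to respond to stimulation. Their rises were 31.2% of the list beside 2.57% of all genes. Junb stood at 13.6 and 24.5 TPM in MAR1HI and 61.8 and 64.7 TPM in MAR1INT (1.74, adjusted p = 0.0136), and Zfp36, which degrades cytokine messages, at 55.4 and 88.7 and 209 and 226 TPM (1.62, adjusted p = 0.0180). In the cytokine pathway through JAK and STAT5, 4 of 19 rose and 0 fell (median 0.34), which was 21.1% higher beside 2.57% of all genes. Pim1, a kinase induced by STAT5, stood at 70.8 and 100.5 and 178 and 176 TPM (1.06, adjusted p = 0.0177), and Jak2, the kinase bound to the beta common chain, at 381 and 485 and 785 and 763 TPM (0.85, adjusted p = 0.0152). Both lost their calls without MAR1HI replicate 1 (0.0817 and 0.0688). Of 20 NF-kappaB factors and inhibitors 0 were called in the limma fit, at a median of 0.03.

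Interferon-stimulated genes did not move as a block: of 40 tested 2 rose and 4 fell (median 0.04), and only the rises stood in every scaling. The rises were 5% of the list beside 2.57% of all genes, and the falls were 10% beside 15.9%. Ifitm1 (chr7:140967429-140969827), an antiviral membrane protein, stood at 2079 and 1424 TPM in MAR1HI and 5694 and 6254 TPM in MAR1INT (1.79, SE 0.21, adjusted p = 0.000418) and held. Samhd1, which depletes nucleotides in resting cells, stood at 64.2 and 105 and 281 and 243 TPM (1.66, adjusted p = 0.00451, 0.0676 without MAR1HI replicate 1). Ifitm2 fell from 694 and 670.5 to 444 and 433 TPM (-0.64, adjusted p = 0.0325), a call lost in every leave-out. The 4 falls were 0 without either MAR1HI library.

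Ranked by size alone, the largest rises among protein-coding genes at 10 TPM or more were H3c14, H4bc24, Wdr95, Gm45935, Unc93a, H2-Q8, Cd7, Olfr1033, Tdg, Slc6a4, Gstm3 and Itgb5. Wdr95, Unc93a and H2-Q8 held, with 3.57 and 1.75 against 55.8 and 95.7 TPM, 1.67 and 2.91 against 21.6 and 25.5 TPM and 2.24 and 2.45 against 22.4 and 21.7 TPM. H2-Q8 is uncertain as a level, because its interval is almost that of H2-Q6, which fell. Cd7 (chr11:121036749-121039478), an immunoglobulin-like protein best known from T and NK cells, stood at 63.2 and 105 TPM in MAR1HI and 569 and 518 TPM in MAR1INT (2.72, SE 0.37, adjusted p = 0.00106), with 0.0518 without MAR1HI replicate 1. No marker of T and NK cells was at a level that was tested. The largest falls were Slirp, Evi2, H2-Q6, Birc5, H2-Q9, Cox6b2, Cdkn3, Wfdc21, Kif22, Stfa2l1, Shcbp1 and Cep55.

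Several of these falls are uncertain as levels. Slirp, a mitochondrial RNA-binding protein that every cell uses, stood at 154 and 134 TPM in MAR1HI and was listed at 0 in both MAR1INT libraries, and 32% of its exonic bases lie in exons of other genes. Evi2 (124 and 164 TPM in MAR1HI) was also listed at 0, with 57.6% of its exonic bases shared with Evi2a and Evi2b. H2-Q6 and H2-Q9 stood at 89.8 and 125 and 85.3 and 41.8 TPM in MAR1HI and were listed at 0 in MAR1INT. Both are class I genes near-identical to H2-Q8, which rose. H2-Q6 (chr17:35424877-35428361) and H2-Q8 (chr17:35424847-35428361) occupy almost the same interval, so the split of reads between them is uncertain. Shcbp1 and Cep55, genes of cytokinesis, stood at 41.2 and 56.9 against 0 and 1.41 TPM and 26.4 and 34.9 TPM against a listed 0, and held. The listed 0 leaves the level of Cep55 in MAR1INT uncertain too.

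The called genes at the highest levels all rose: Rmrp, Rpph1, Rps23, Snora64, Rps24 and Snord15b. Rmrp, the RNA of RNase MRP, stood at 11030 and 6654 TPM in MAR1HI and 21030 and 22070 TPM in MAR1INT (1.33, adjusted p = 0.00711), and Rpph1, the RNA of RNase P, at 8205 and 5316 and 15120 and 18260 TPM (1.33, adjusted p = 0.00449). All 6 lost their calls without MAR1HI replicate 2, whose value was the lowest of the 4 libraries for each, with adjusted p between 0.0670 and 0.154. Of the 6 only Snord15b was called in every scaling.

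Markers of other cell types were present at uneven levels. Neutrophil markers summed to 4937 and 3793 TPM in MAR1HI and 3956 and 3336 TPM in MAR1INT. Of 13 tested 3 fell and 0 rose (23.1% lower beside 15.9% of all genes), and 6 of the 13 had a log2 difference above 0. Ctsg, given with the granule proteins, was 1 of the falls. Mpo, myeloperoxidase, stood at 615 and 494 TPM in MAR1HI and 113 and 65.1 TPM in MAR1INT (-2.67, adjusted p = 0.000215) and held, and Elane, neutrophil elastase, stood at 47.4 and 34.0 and 14.6 and 13.1 TPM (-1.47, adjusted p = 0.0382, lost without either MAR1HI library). S100a8, of mature neutrophils, stood at 1505 and 894 against 1867 and 1665 TPM (adjusted p = 0.262). Erythroid markers summed to 1207 and 609 TPM in MAR1HI and 2790 and 1267 TPM in MAR1INT, higher in both MAR1INT libraries and with a wide gap between duplicates. Of 10 tested 0 rose and 1 fell (10% lower beside 15.9% of all genes). Hba-a1, alpha globin, stood at 14.6 and 558 against 1976 and 1213 TPM and was not called (adjusted p = 0.237). Eosinophil markers summed to 109 and 158 TPM in MAR1HI and 213 and 349 TPM in MAR1INT. Of 5 tested 2 rose, both in every scaling, and 0 fell (40% higher beside 2.57% of all genes, median 1.23). The rises were Ccr3 and Siglecf, which are also counted among the receptors above. Of the granule proteins that define eosinophils, Epx was at most 0.314 TPM in the 4 libraries, and Prg2 stood at 46.7 and 65.7 against 1.95 and 70.0 TPM, not called (adjusted p = 0.239). Of the mast cell markers only Kit was tested. Dendritic cell markers had 3 falls among 6 tested, H2-Ab1 at 27.3 and 19.2 and 7.30 and 4.46 TPM, Itgax and H2-Aa, all lost without either MAR1HI library. Adgre1 (F4/80), of macrophages and eosinophils, rose from 6.51 and 7.38 to 25.5 and 47.6 TPM (2.18, adjusted p = 0.00559, lost without either MAR1HI library). Adgre1 was the 1 called gene among 8 tested monocyte and macrophage markers (12.5% higher beside 2.57% of all genes). Of these 8, 5 had a log2 difference below 0 (median -0.31). The dendritic cell falls were 50% of the 6 tested markers, beside 15.9% of all genes. The part of other cells in the calls of the granule and surface genes was not tested.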

How the data were processed

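RNA was taken from sorted mouse bone marrow populations with TRIzol LS, and libraries were made with the SureSelectXT RNA direct kit, per the labels' protocols. Trimmomatic, HISAT2, StringTie and the build mm10 are named in the submitters' processing notes; versions, options, annotation and strandedness are not given in the sources used here. Per the file headers, the deposited values are coverage (a signal per base), FPKM and TPM for each gene. The authors' TPM sums to 1000000 in every library, so a fall of the histone share raises all other values. The deposited coverage and FPKM served only to derive the aligned bases, and FPKM also as another scaling. No read counts were used, so precision rests on the spread between 2 libraries a group, and no counting interval is given. The label biological duplicates does not say whether animals were separate, so the p-values measure the spread between these libraries.

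TPM of rows sharing a gene ID were summed (310 IDs had several rows in at least 1 library). A RefSeq table (GRCm38.p6) gave symbols for 24462 IDs and none for 70. Coordinates are those of the files (mm10, counted from 1). Genes that reached TPM 1 in 2 or more of the 4 compared libraries entered limma 3.58.1 in R 4.3.3 on log2(TPM + 1), a scale that understates changes of low genes. The fit held all 6 libraries with 1 term a group, an intensity trend and 3 residual degrees of freedom. The test was two-sided with Benjamini-Hochberg adjustment over 10778 genes and a threshold of 0.05. An exact permutation test of 2 against 2 libraries cannot go below 0.333. The procedure was tested on simulated data.

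Named by rule were the 12 largest rises and falls among called protein-coding genes (mean of 10 TPM or more in the higher group, one direction in every scaling, no overlap of libraries), the gated genes, up to 4 called members a list in each direction, up to 2 members by level where a list had none, and the 6 called genes at the highest level. Subgroups and members given below the threshold were picked after their values were seen. The populations compared and the gene lists were chosen with earlier results of these data known. Alternatives changed the scaling, pseudocount, filter, fit and libraries. Motif matches used promoters from RefSeq (GRCm38.p6). Tables were handled with pandas 2.3.3 and numpy 2.4.6 under Python 3.11.15, and plots drawn with matplotlib 3.10.9.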

Additional observations from a re-analysis of the deposited data

How the results depend on the processing

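Of the 3 summary values (277 genes called higher, 1715 called lower, and a median change of -0.34 over all tested genes) the counts stayed within 1.5 times under FPKM, TPM without histone genes, a pseudocount of 0.1, a mean of 5 TPM or more, the filter over 6 libraries, the omission of genes listed at 0 in a whole group, and the 4 libraries alone. Quantile normalization gave 734 higher and 993 lower and turned the median to 0.061. Median-of-ratios factors gave 828 higher and a median of -0.080, with 1241 lower. With no filter on low values 127 genes were called higher and 980 lower among 15332 tested. Leaving out 1 library at a time gave 50 to 367 higher, 274 to 2300 lower and a median of -0.56 to -0.14; the lowest counts came without MAR1HI replicate 1 (50 higher) and replicate 2 (274 lower). The labels number the replicates, but a number names no shared animal or day: the deviations of equally numbered libraries correlated at 0.16 (BaP with MAR1HI), -0.09 (BaP with MAR1INT) and -0.06 (MAR1HI with MAR1INT). With a replicate block 228 genes were called higher and 1658 lower, within 1.5 times of the counts without it. The depth, 4.75 to 5.28 gigabases, differed little, and the error was set by the spread between duplicates, which in MAR1INT was largest for genes at 2 to under 10 TPM (SD 0.87).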

Other observations

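Genes outside the lists were looked up after their values were seen, and the following kept their calls without each of the 6 libraries in turn and in every scaling. Txnip, an inhibitor of thioredoxin that also limits glucose uptake, stood at 874 and 852 TPM in MAR1HI and 2495 and 2377 TPM in MAR1INT (limma adjusted p = 0.000392). Slfn2, a gene of the Schlafen family tied to quiescence of leukocytes, stood at 182 and 229.5 and 874 and 766 TPM (adjusted p = 0.000385). Gabbr1, a subunit of the GABA-B receptor, stood at 148 and 189 and 417 and 450.1 TPM (1.37, adjusted p = 0.00240). In the opposite direction, Ms4a3, a membrane protein of granulocyte and monocyte progenitors, stood at 240.0 and 338 TPM in MAR1HI and 9.14 and 16.0 TPM in MAR1INT (-4.44, adjusted p = 3.60e-05), with 497 and 482 TPM in BaP. Stmn1, which destabilises microtubules in dividing cells, stood at 511 and 470.5 and 71.5 and 54.7 TPM (-2.95, adjusted p = 6.40e-05).

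The mu class glutathione S-transferases, enzymes of detoxification that lie in 1 cluster, did not move together. Of 6 tested members 3 rose and 2 fell. Gstm1 stood at 151 and 271 TPM in MAR1HI and 907 and 894 TPM in MAR1INT (2.15, adjusted p = 0.00104), a call kept without each library in turn, while Gstm5 stood at 28.9 and 20.8 and 0 and 3.88 TPM (-3.53, adjusted p = 0.00657), not called in every scaling and kept in 4 of 6 leave-outs. Gstm3 (2.48) and Gstm4 (1.53) rose from lower levels. The members are similar in sequence, so the split of reads between them is uncertain.

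Among RNAs that code for no protein, calls ran in both directions: 14 of the small nucleolar RNAs rose and 31 fell, with 55 not called, and 15 microRNA genes rose and 33 fell, with 185 not called. Over all tested genes 2.57% rose and 15.9% fell.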
